A study of Cricetulus griseus with 10 samples.

Results

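The genes described here are 10 feedback inhibitors of growth factor signalling, Spry1, Spry2, Spry4, Spred1, Spred2, Spred3, Dusp1, Dusp4, Dusp5 and Dusp6, in CHO-K1 cells during adaptation to suspension growth. They were chosen by name, with earlier results of these data known. They were found in the expression table by symbol (3 genes) or by Chinese hamster gene number (7 genes). All 10 are present among its 25156 features. CHO-K1 is an established cell line from Chinese hamster ovary, labelled wild type in every sample. The growth note is the same for every sample and names SFM4CHO, a serum-free medium, for the adaptation. RNA sequencing was done at passages 0, 2, 4, 6 and 10 of the adaptation, called P0, P2, P4, P6 and P10, with 2 libraries at each and 10 in all. The labels state neither whether the P0 cells were already in that medium nor whether duplicates came from separate cultures, so a p-value here reflects no more than the spread among these libraries, and that spread may be technical.

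Growth factors that bind receptor tyrosine kinases switch on the RAS, RAF, MEK and ERK relay, and ERK in turn raises the transcription of its own inhibitors. Sprouty proteins act near the receptor and RAS, Spred proteins bring neurofibromin to RAS at the membrane, and the Dusp proteins described here are phosphatases that remove the activating phosphates from MAP kinases. These roles are known mainly from mouse and human cells, where the messenger levels of several of the genes, Spry2, Spry4, Dusp4 and Dusp6 among them, are widely read as a trace of recent ERK activity.

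Values are normalised read counts, that is, reads per gene divided by 1 size factor per library. The libraries held 8394219 to 16599495 reads on genes. The test covered 13521 features whose mean reached 10, all 10 genes included, although Spry4 reached that mean only through the later passages. A change is the difference of mean log2(normalised read count + 1), tested with limma over all 13521 features, and a gene is said to have risen or fallen where its adjusted p was under 0.05. The duplicates correlated at 0.988 to 0.992 across genes at P0, P2 and P4, but at 0.956 at P6 and 0.930 at P10. P6 replicate 2 and P10 replicate 1 also stood apart in the share of reads on the single feature Dym, 1.15% and 1.41%, against 8.53 to 13.5% in the P0, P2 and P4 libraries. P6 replicate 1 had 4.32% and P10 replicate 2 had 10.7%. As markers of cell identity, the mesenchymal gene Vim lay between 12370 and 23050 normalised reads in every library, while Fn1, of the same marker list, had 1344 and 1287 at P10 against 7604 and 5351 at P0. Col1a2 did not exceed 3.37, and S100a4 lay between 696 and 3983. Col1a1 was highest at P2, with 37.5 and 54.8 normalised reads against 3.48 and 7.19 at P0. Its P0 level rests on 4 and 5 reads, and it reached the mean of 10 only through P2 and P4. Spry1, Spry2, Spry4 and Dusp6 were also highest at P2, and the part of Col1a1 in their changes was not tested. The epithelial keratins Krt8, Krt18 and Krt19 did not exceed 4.95. The epithelial genes Epcam and Cdh1 had 2.87 to 16.4 and 50.6 to 337. Among the granulosa cell markers that matched a feature, Fshr, Amhr2 and Inha summed to 63.4 to 124 per library, and Foxl2 and Cyp19a1 matched none. The 4 endothelial markers that matched a feature summed to 86.2 to 92.3 at P0 and 99.5 to 106 at P2. Their sum was 80.4 to 90.0 at P4, 82.2 to 150.5 at P6 and 64.8 to 68.35 at P10.

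Sprouty genes were the members that rose first. At P2 all 3 stood above P0, Spry1 and Spry2 by about 4-fold and Spry4 by a fold that depends on 10 reads at P0, and after it the means of Spry1 and Spry2 were lower at each later passage, while Spry4 was still called higher at P10. Spred1 and Dusp4 had their highest mean at P0 and were called lower at P10. With the spread taken from P10 and P0 alone, the P10 calls of Spry4, Spred1 and Dusp4 were lost (limma adjusted p = 0.142 to 0.196). In that fit 49 of all features were called. The differences of Spred2, Spred3, Dusp1, Dusp5 and Dusp6 from P0 did not pass the test. Over the 40 comparisons of a member with P0, 12 passed, in 5 of the 10 genes.

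**Figure D1:**
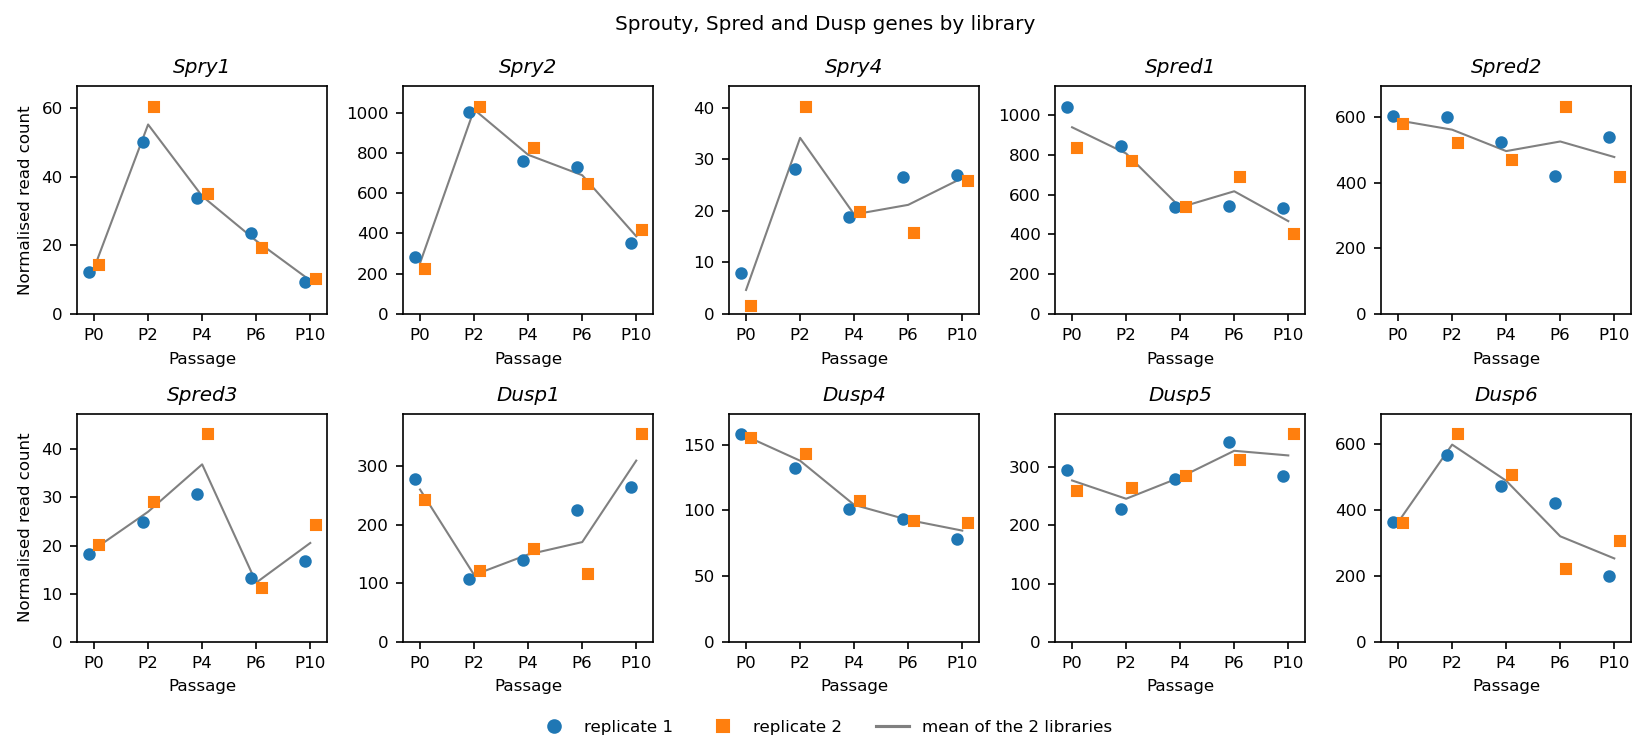
Normalised read count of each of the 10 genes (vertical axis, from 0, a scale of its own in each panel) in each library by passage. Circles and squares are replicates 1 and 2 and the line joins the means; Spry1 and Spry2 peak at P2, Spred1 and Dusp4 are highest at P0 and lowest at P10, and Dusp1 and Dusp6 at P6 have widely separated duplicates.

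Spry2, the Sprouty gene most studied as a brake on RAS signalling, had 282 and 223 normalised reads in the P0 libraries, 1002 and 1030 in P2, 759 and 823 in P4, 732 and 647 in P6, and 352 and 419 in P10. No library of a later passage came down to the P0 values. The duplicates differed by 0.04 on the log2 scale at P2 and by 0.34 at P0, where the median of all tested features was 0.175. It rose by 2.01 at P2 (SE 0.18, limma adjusted p = 0.000999), a fold of 4.04, and by 1.65 at P4 (adjusted p = 0.00185) and 1.45 at P6 (adjusted p = 0.0022). At P10 the difference from P0 was 0.61 (SE 0.18, limma adjusted p = 0.0508), so Spry2 did not pass there, although both P10 libraries were above both P0 libraries. Without P6 replicate 2 and P10 replicate 1 the P10 difference was 0.74. That fit was chosen after seeing the data and left 1 library each at P6 and P10. It called many more of all features than the main fit. DESeq2 called Spry2 at P10 (adjusted p = 0.0329). The 3 earlier calls of Spry2 held under each of the 19 alternatives tried. From P2 to P10 Spry2 fell by 1.40 (SE 0.18, limma adjusted p = 0.0129), a call lost in 5 of 19 alternatives. Among them were the removal of P2 replicate 2 (adjusted p = 0.221) and the spread taken from P10 and P2 alone (0.381), where 0 features were called.

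Spry1, which restrains growth factor signalling in the developing kidney of mice, was covered by few reads. It had 12.2 and 14.4 normalised reads in the P0 libraries, 49.99 and 60.3 in P2, 33.6 and 35.0 in P4, 23.5 and 19.1 in P6, and 9.28 and 10.2 in P10. The P2 libraries were the highest and the P10 libraries the lowest, with no overlap between any neighbouring passages. Spry1 rose by 1.97 at P2 (SE 0.31, limma adjusted p = 0.0126) and by 1.31 at P4 (SE 0.31, adjusted p = 0.036). At P6 its difference from P0 was 0.64 (adjusted p = 0.169) and at P10 it was -0.41 (adjusted p = 0.41). From P2 to P10 it fell by 2.39 (SE 0.31, limma adjusted p = 0.0133), the largest change of any of the 10 genes between P2 and P10. This call held in 13 of 18 alternatives. It was lost without P2 replicate 2 (adjusted p = 0.258) and with the spread taken from P10 and P2 alone (0.396), where 0 features were called. The P2 reads of Spry1, 102 in all against 24 at P0, give a ratio of 4.22 with a 95% exact binomial interval of 2.69 to 6.89. Such intervals cover counting error only. The P2 call was lost without either single library of P2 or of P0, with adjusted p values of 0.0793 to 0.162, and the P4 call in 9 of 18 alternatives, DESeq2 among them (adjusted p = 0.0554).

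Spry4, an inhibitor induced by fibroblast growth factors, had 7.84 and 1.44 normalised reads in the P0 libraries, 28.1 and 40.2 in P2, 18.8 and 19.8 in P4, 26.6 and 15.7 in P6, and 27.0 and 25.7 in P10. Every later library was above both P0 libraries, and the P2 libraries were above those of all other passages. Spry4 rose by 2.90 at P2 (SE 0.58, limma adjusted p = 0.0311), by 2.21 at P6 (adjusted p = 0.0306) and by 2.56 at P10 (adjusted p = 0.02). At P4 the difference was 2.13 (SE 0.58, limma adjusted p = 0.055) and did not pass. The P0 level of Spry4 rests on 10 reads in all, 9 in one library and 1 in the other, against 63 at P2, 36 at P4, 48 at P6 and 65 at P10. Ratios of the pooled reads to P0 were 6.26 (95% exact binomial interval 3.19 to 13.7) at P2, 3.55 (1.73 to 8.03) at P4, 4.08 (2.04 to 9.05) at P6 and 4.86 (2.48 to 10.6) at P10. Without P0 replicate 2, the library with 1 read, the difference at P2 was 1.97, against 2.08 for Spry1 in the same fit, and none of the Spry4 calls held (adjusted p = 0.132 at P2, 0.156 at P6 and 0.0978 at P10). The P2 call was also lost without any single library of P2 or P4 (0.077 to 0.252), and the P6 call in 8 of 18 alternatives. The P10 call was also lost with the spread taken from P10 and P0 alone (limma adjusted p = 0.155). With a pseudocount of 5 the difference at P2 was 2.09 (adjusted p = 0.0232), against 1.997 for Spry2. The remaining family member Spry3 was at or near 0, with 1 read in P6 replicate 1, 1 in P10 replicate 1 and none in the other 8 libraries.

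At P2, 3 of the 10 genes were called, all higher, where 4.15% of all tested features were called in either direction, 2.08% higher and 2.07% lower. No member fell by limma or edgeR; at an unadjusted p under 0.05, 4 were higher and 1 lower, and DESeq2 called Dusp1 lower as well. The groups did not overlap for 7 members, 5 higher and 2 lower, where 34.2% of all features were without overlap on the higher side and 32.9% on the lower side. The median difference of the 10 genes was 0.20, against 0.01 over all tested features, with 5 members above P0 and 5 below. Over the 7 members with a mean of at least 50 it was -0.174, so the median shows no shift of the members as a set. Of the 5 leukocyte markers, 4 matched a feature, and their summed level was 97.9 to 104 normalised reads in the P2 libraries and 47.0 to 57.5 in the P0 libraries. The sum was 174 to 199 at P4, 142 to 203 at P6 and 102 to 153 at P10. Itgax, an integrin gene of myeloid cells, had 37.5 and 35.8 at P2 and 0 and 1.44 at P0 and was called higher at every later passage (limma adjusted p = 0.00181 at P2). Its P0 level rests on 0 and 1 reads, and Itgax reached the mean of 10 only through the later passages. Cd68 had 40.6 and 45.8 at P2 and 32.2 and 37.4 at P0, and was called higher at P4 and P6. Ptprc, which defines leukocytes, had 13.5 and 20.1 at P2 and 9.58 and 18.7 at P0, and Laptm5 had 6.25 and 2.23 at P2 and 5.23 and 0 at P0. The part of these markers in the Sprouty changes was not tested, and in bulk RNA fewer cells of a type and less RNA per cell cannot be told apart.

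**Figure D2:**
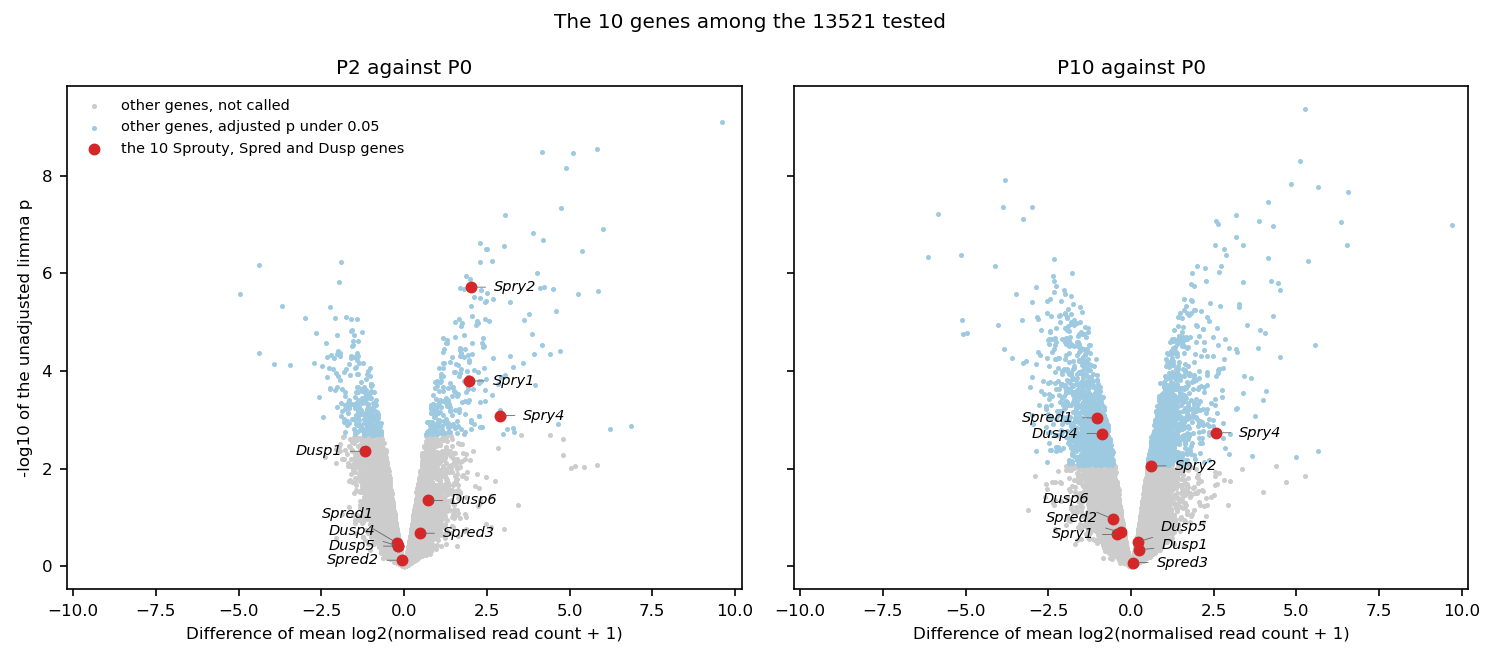
Difference of mean log2(normalised read count + 1) on the horizontal axis and -log10 of the unadjusted limma p on the vertical axis for the 13521 tested features, at P2 against P0 (left) and P10 against P0 (right). The 10 genes are the large labelled points; at P2 Spry2, Spry1 and Spry4 lie among the called features on the right, and at P10 Spry4 lies on the right and Spred1 and Dusp4 on the left.

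Spred1, the family member whose loss in people gives a syndrome resembling neurofibromatosis, had 1044 and 836 normalised reads in the P0 libraries, 845 and 772 in P2, 536 and 537 in P4, 545 and 691 in P6, and 532 and 402 in P10. The P0 and P2 libraries overlapped, and all later libraries were below both. Spred1 fell by 0.80 on the log2 scale at P4 (SE 0.21, limma adjusted p = 0.0468) and by 1.01 at P10 (SE 0.21, limma adjusted p = 0.0137), to 467 ± 92.3 at P10 against 940 ± 147 at P0 (SD, n = 2 each). At P2 the difference was -0.21 (adjusted p = 0.681) and at P6 it was -0.61 (adjusted p = 0.0684). Without P6 replicate 2 and P10 replicate 1 the P10 difference was -1.22. The P10 call was lost without P0 replicate 1 (limma adjusted p = 0.129) and with the spread taken from P10 and P0 alone (0.142). The P4 call was lost in 9 of 19 alternatives, with adjusted p of up to 0.304.

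With all libraries in the fit, the other Spred genes did not pass in any of the 10 pairs of passages. Spred2, a close relative that also binds neurofibromin, ranged from 416 in P10 replicate 2 to 631 in P6 replicate 2, and its P6 duplicates, 419.5 and 631, spanned nearly that whole range. Its differences from P0 were -0.20 at P6 and -0.31 at P10. Without P6 replicate 2 and P10 replicate 1 they were -0.49 and -0.50. Spred3, the member with the narrowest known expression in mice, had 18.3 and 20.1 normalised reads in the P0 libraries, 25.0 and 29.1 in P2, 30.7 and 43.1 in P4, 13.3 and 11.2 in P6, and 16.9 and 24.2 in P10. It was highest at P4 and lowest at P6, without overlap between these 2 passages. The difference of P6 from P4 was -1.499 (SE 0.35, limma adjusted p = 0.179) and of P4 from P0 0.89 (adjusted p = 0.157). The fit without P6 replicate 2 and P10 replicate 1 called both differences, but it left 1 library at P6 and called many more of all features.

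Dusp4, a nuclear phosphatase of ERK, JNK and p38, had 158 and 155 normalised reads in the P0 libraries, 132 and 143 in P2, 101 and 107 in P4, 93.1 and 92.1 in P6, and 78.5 and 90.5 in P10. Each passage lay below the one before it with no overlap. Dusp4 fell by 0.75 on the log2 scale at P6 (SE 0.20, limma adjusted p = 0.0333) and by 0.88 at P10 (SE 0.20, limma adjusted p = 0.0205). At P2 and P4 its differences were -0.18 and -0.58 (adjusted p = 0.723 and 0.114). Without P6 replicate 2 and P10 replicate 1 the P6 and P10 differences were -0.74 and -0.78. The P10 call was lost in 7 of 19 alternatives (adjusted p of up to 0.196) and the P6 call in 11 of 19 (up to 0.164).

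Dusp6, the cytoplasmic phosphatase that is selective for ERK, had 363 and 361 normalised reads in the P0 libraries, 567 and 628 in P2, 471 and 505 in P4, 419 and 219 in P6, and 200 and 304 in P10. It was highest at P2, above both P0 libraries, and at P6 the duplicates lay on either side of P0. The differences from P0 were 0.72 at P2 (SE 0.31, limma adjusted p = 0.255), 0.43 at P4 (adjusted p = 0.447), -0.26 at P6 (adjusted p = 0.558) and -0.55 at P10 (adjusted p = 0.253). The P6 difference was 0.21 without P6 replicate 2 and P10 replicate 1, so its sign rests on P6 replicate 2. That fit, which called many more of all features, called Dusp6 at P2 and P4. With the spread taken from P2 and P0 alone Dusp6 also passed at P2 (limma adjusted p = 0.00204). There 3940 features were called, against 561 with all libraries. In the RefSeq annotation of the CriGri-PICRH-1.0 assembly, which may not be the authors' build, Dusp6 overlaps the span of the protein-coding gene LOC100754361. That gene had 128 and 118 normalised reads at P2 and 212 and 233 at P0, the opposite order to Dusp6. Whether reads were assigned by strand is not given in the sources used here.

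Dusp1, an immediate early gene whose product inactivates p38 and JNK as well as ERK, had 279 and 241 normalised reads in the P0 libraries, 107 and 121 in P2, 139 and 159 in P4, 225 and 116 in P6, and 265 and 354 in P10. Its P2 and P4 libraries lay below P0 and its P10 libraries overlapped P0. The differences from P0 were -1.18 at P2 (SE 0.31, limma adjusted p = 0.0774), -0.80 at P4 (0.155), -0.68 at P6 (0.144) and 0.24 at P10 (0.648). From P2 to P10 the difference was 1.42 (SE 0.31, limma adjusted p = 0.0688). DESeq2 called the P2 fall (adjusted p = 0.0118) and the difference of P10 from P2 (0.00178). The fit without P6 replicate 2 and P10 replicate 1, which called many more of all features, called them too. Dusp5, a nuclear phosphatase of ERK, ranged from 228 in P2 replicate 1 to 357 in P10 replicate 2. Its differences from P0 lay between -0.17 and 0.24, and none of its 10 pairs of passages passed (smallest adjusted p = 0.209).

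**Figure D3:**
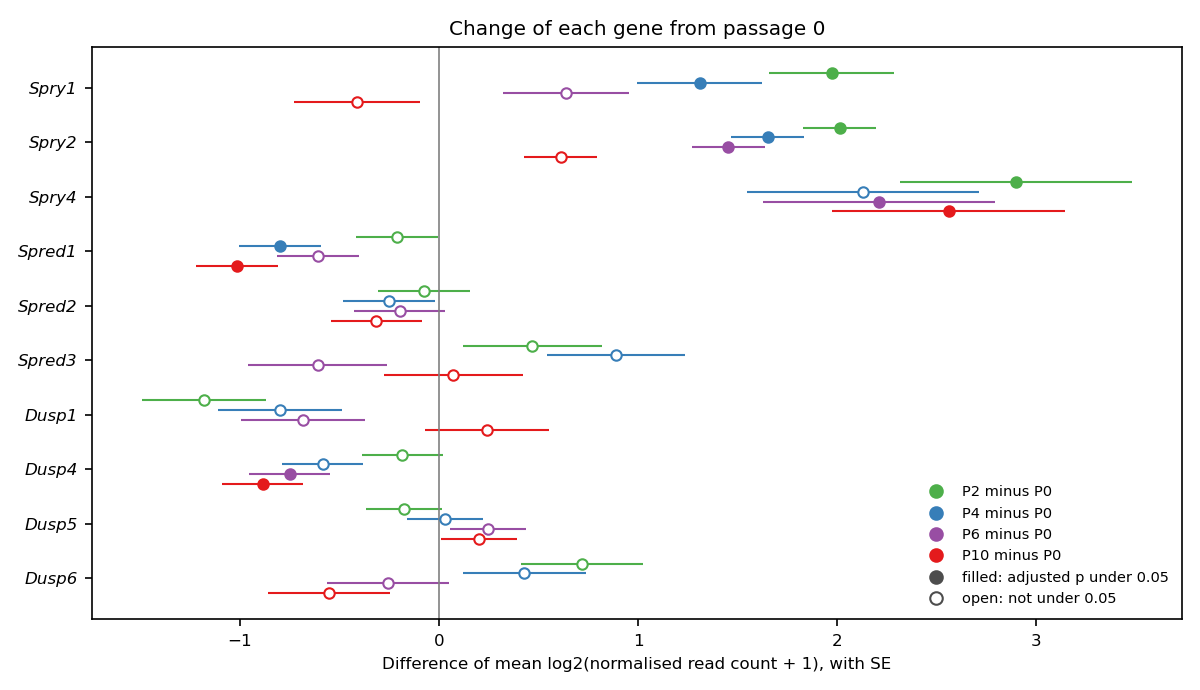
Difference of mean log2(normalised read count + 1) of P2, P4, P6 and P10 from P0 for each gene (horizontal axis), with bars of 1 SE from limma. Filled points have an adjusted p under 0.05: Spry1 at P2 and P4, Spry2 at P2, P4 and P6, Spry4 at P2, P6 and P10, Spred1 at P4 and P10, and Dusp4 at P6 and P10.

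In the later comparisons the members' counts were nearer to those of all genes. At P4, 2 of the 10 genes rose and 1 fell, with 9.24% of all features called (3.72% higher and 5.52% lower), and the groups did not overlap for 5 higher (37.8% of all features) and 4 lower (34.6%). At P6, 2 rose and 1 fell with 21.0% of all features called (10.5% in each direction), and at P10, 1 rose and 2 fell with 17.0% called (8.77% higher and 8.25% lower). The groups did not overlap at P6 for 4 members higher (32.0% of all features) and 4 lower (35.7%), and at P10 for 2 higher (28.3%) and 5 lower (26.0%). A count of 3 in 10 is therefore close to the background at P6 and P10. The median differences of the 10 genes were 0.23 at P4, -0.23 at P6 and -0.12 at P10, against 0.03, -0.07 and 0.00 over all tested features. Over the 7 members with a mean of at least 50 they were -0.251, -0.255 and -0.315. Leaving out P6 replicate 2 and P10 replicate 1 raised the number of members called to 5 at P6 and 5 at P10, while the number of all features called rose to 6593 and 6264, against 2841 and 2301 with all libraries.

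After P2, no step between successive passages gave a call by limma or edgeR. From P2 to P4, P4 to P6 and P6 to P10, limma and edgeR called 0 of 13521 features, with 285, 3450 and 1273 features at an unadjusted limma p under 0.05, and DESeq2 called 10, 463 and 67. Among the 10 genes Spred1 was lower at an unadjusted p under 0.05 in the first step, Spred3 in the second, and Spry1 and Spry2 in the last, where Dusp1 was higher. DESeq2 called Spry2 in the last step (adjusted p = 0.0156). Between P2 and P10, Spry1 and Spry2 fell, 2 of the 10 genes with 1.26% of all features called, and 0 rose by limma and edgeR, with Dusp1 the single member higher at an unadjusted p under 0.05 and called by DESeq2. Neither P6 against P2 nor P10 against P4 gave a call among the members by limma or edgeR (0.377% and 0.222% of features called). In those comparisons 5 members were at an unadjusted p under 0.05 in each, and DESeq2 called 0 and 3.

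Ordering the 5 passages by each gene's level gave 40 neighbouring pairs, and none differed at an adjusted p under 0.05 by limma; 3 were at an unadjusted p under 0.05. These were P6 over P10 and P10 over P0 for Spry2 and P4 over P0 for Spry4. Spry2 descended through P2, P4, P6, P10 and P0, and Spry1 through P2, P4, P6, P0 and P10. Spry4 descended through P2, P10, P6, P4 and P0. Spred1, Spred2 and Dusp4 all had P0 first and P2 second, and P10 last. Dusp6 had the order P2, P4, P0, P6 and P10, and Dusp1 had the order P10, P0, P6, P4 and P2. Spred3 was highest at P4 and lowest at P6, and Dusp5 highest at P6 and lowest at P2.

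Across the 10 libraries, which share passages and size factors, Pearson's r of log2 values was 0.87 between Spry1 and Spry2, 0.84 between Spry1 and Dusp6, 0.84 between Spred1 and Dusp4 and -0.85 between Spry1 and Dusp1. These correlations describe 5 passages sampled in duplicate and carry no test. The genes most like Spry2 among 9266 with a symbol and a mean of at least 50 were Oasl2 (r = 0.98), Armcx3 (0.97) and Sgpl1 (0.97). Those most like Spry1 were Dstyk (0.97), Rgs16 (0.97) and Uba7 (0.97), and those most like Spry4 were Mtmr12 (0.93), Ppp1r2 (0.93) and Ttc32 (0.93). For Spred1 they were Ildr2 (0.97), Osmr (0.96) and Cpeb1 (0.95), and for Dusp4 they were Nfatc1 (0.98), Gpr107 (0.97) and Cdon (0.97).

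Of the other 6 MAP kinase phosphatases listed, 3 could be tested. Dusp10, a phosphatase selective for p38 and JNK, had 765 and 924 normalised reads in the P0 libraries, 286 and 300 in P2, 413 and 453 in P4, 605 and 426 in P6, and 580 and 665 in P10. It was lowest at P2 and came back towards P0, the same order of passages after P0 as Dusp1. It fell by 1.52 on the log2 scale at P2 (SE 0.21, limma adjusted p = 0.00629), by 0.96 at P4 and by 0.73 at P6, and did not pass at P10 (-0.44, adjusted p = 0.184). Dusp16, which acts on JNK and p38, fell to 341 ± 34.0 at P4, 301 ± 6.09 at P6 and 427 ± 16.1 at P10, against 672 ± 113 at P0 (SD, n = 2 each; adjusted p = 0.0133, 0.00466 and 0.0398). Dusp7, an ERK phosphatase related to Dusp6, rose at P6 to 153 ± 26.7 against 76.2 ± 14.2 at P0 (0.99, limma adjusted p = 0.022). Dusp8 lay below the mean of 10, with 2.25 to 25.3 normalised reads, Dusp2 had 1 read in P6 replicate 2, and Dusp9 had none in any library.

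Genes whose transcription follows ERK activity in other cells moved in both directions. Of 12 listed, 9 matched a feature and 8 were tested. Of these, 1 rose and 1 fell at P2, 1 rose and 2 fell at P4, 2 rose and 3 fell at P6, and 2 rose and 2 fell at P10. Over all tested features, limma called 4.15% at P2, 9.24% at P4, 21.0% at P6 and 17.0% at P10. At P2, 2 of the listed genes were higher and 3 lower at an unadjusted limma p under 0.05. DESeq2 called Ccnd1 higher and Myc, Egr1 and Fos lower there. Ccnd1, the cyclin that drives entry into the cell cycle, had 1511 and 1688 normalised reads at P2, against 443 and 339 at P0, and stayed above P0 to P10 (928 ± 14.0, SD, n = 2). It rose by 2.04 at P2 (SE 0.27, limma adjusted p = 0.00619) and by 1.26 at P10 (adjusted p = 0.0172). The receptor Epha2 rose by 0.62 at P6 and 0.56 at P10. The early transcription factors went the other way: Fos fell to 166 ± 9.24 at P2 against 1106 ± 33.6 at P0 (-2.73, limma adjusted p = 0.00756), and Egr1 fell by 2.82 on the log2 scale at P4 and by 2.57 at P10. Myc had a difference of -1.41 at P2 (adjusted p = 0.0797) and fell at P6 (-1.58, limma adjusted p = 0.0219), a P6 value chosen for mention after it was seen.

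**Figure D4:**
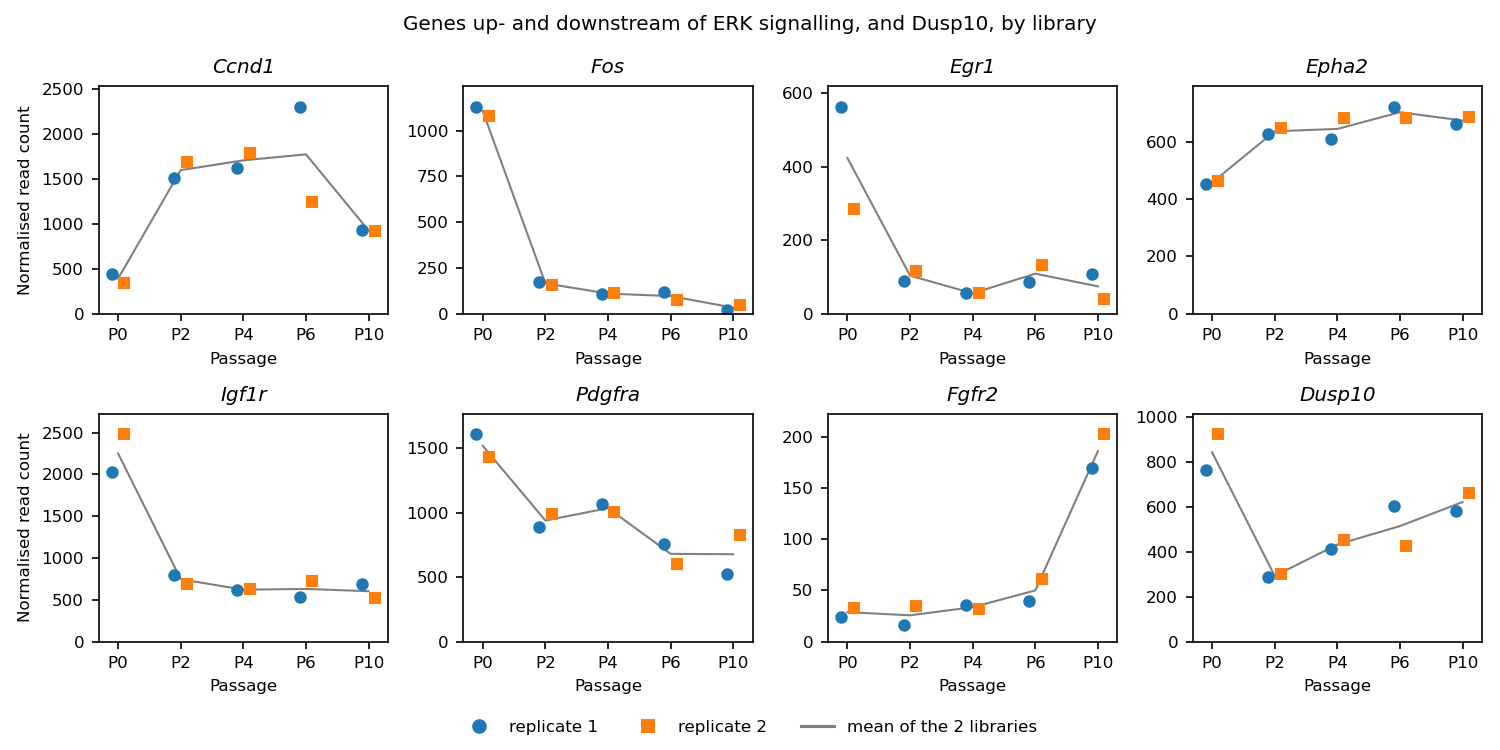
Normalised read count (vertical axis, from 0, a scale of its own in each panel) of 4 genes downstream of ERK, 3 growth factor receptors and Dusp10 in each library by passage, with circles and squares for replicates 1 and 2 and a line through the means. Ccnd1 and Epha2 lie above their P0 values and Fos, Egr1, Igf1r, Pdgfra and Dusp10 below them at every later passage, while Fgfr2 stands clear of P0 in both P10 libraries.

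Upstream of the inhibitors, 13 of 15 listed growth factor receptors were tested. At P2, 1 fell and 0 rose by limma, with 6 lower and 2 higher at an unadjusted p under 0.05; edgeR called 1 lower and 0 higher, and DESeq2 called 5 lower and 1 higher. At P4, 2 rose and 2 fell, at P6, 1 rose and 4 fell, and at P10, 2 rose and 5 fell. The limma share of all tested features called was 4.15% at P2, 9.24% at P4, 21.0% at P6 and 17.0% at P10. Igf1r, the receptor of insulin-like growth factors, was the gene that fell at P2 (-1.59, SE 0.22, limma adjusted p = 0.00629), and Met, the receptor of hepatocyte growth factor, had a difference of -0.68 (adjusted p = 0.0561). At P10 Pdgfra, a receptor of platelet-derived growth factor, fell to 677 ± 212 against 1517 ± 124 at P0 (SD, n = 2 each; -1.20, limma adjusted p = 0.0111). Fgfr2, a fibroblast growth factor receptor, rose to 186 ± 23.0 at P10 against 28.7 ± 6.13 at P0 (2.66, limma adjusted p = 0.00423), and its P2 and P4 libraries overlapped P0. Egfr, the epidermal growth factor receptor, rose to 24.6 ± 3.80 at P10 against 5.34 ± 2.62 at P0 (2.07, limma adjusted p = 0.0113). Its P0 level rests on 4 and 5 reads, and Egfr reached the mean of 10 only through the later passages. Igf1r also fell at P10, to 603 ± 116 against 2252 ± 321 at P0 (SD, n = 2 each). The remaining receptors that fell at P10 were Fgfr1 (-1.24), Erbb2 (-1.63) and Insr (-1.18). These P10 values, that of Igf1r included, were chosen for mention after they were seen.

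Components of the relay itself were called in small numbers. Of 20 listed genes of the RAS, RAF, MEK and ERK core, 19 were tested. At P2 none was called by limma or edgeR, with 4 lower and 0 higher at an unadjusted p under 0.05, and DESeq2 called Sos1 lower. At P4, 3 fell (the exchange factors Sos1 and Sos2 and the kinase Braf) and 0 rose by limma, edgeR or DESeq2 or at an unadjusted p under 0.05. At P6, 2 fell and 1 rose, and at P10, 2 fell by limma and 1 by edgeR. Over all tested features, 9.24% were called at P4, 21.0% at P6 and 17.0% at P10. None rose at P10 by limma or edgeR, with 1 higher at an unadjusted p under 0.05 and 1 by DESeq2. At P10 Sos1 fell by 1.01 (adjusted p = 0.0467) and Braf by 0.83 (adjusted p = 0.0455) on the log2 scale, both with limma. The kinase gene Araf had a difference of -0.87 at P10 (adjusted p = 0.0746), and at P2 Sos1 and Sos2 had differences of -1.01 and -0.73 (adjusted p = 0.0994 and 0.129).

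Among 12 other restraints on receptor and RAS signalling, 10 were tested and 1 fell at P10, Cbl, a ubiquitin ligase that removes activated receptors (439 ± 122 at P10 against 843 ± 156 at P0, SD, n = 2 each; -0.96, limma adjusted p = 0.0392). Its relative Cblb had -1.03 (adjusted p = 0.0604), Lrig1 -0.44 and Tesk1 -0.78 at P10, and at P2 Cbl had -0.58 and the receptor inhibitor Errfi1 -0.69, none of which passed. None of the 10 rose at any passage by limma, edgeR or DESeq2 or at an unadjusted p under 0.05, and at P2, P4 and P6 none fell by limma or edgeR, with 0, 2 and 1 lower at an unadjusted p under 0.05 and 0, 1 and 0 called lower by DESeq2. Of 10 listed JNK and p38 kinases and their activators, 6 were tested and 1 was called, Map2k4, an activator of JNK, which fell at P4 (-0.80, limma adjusted p = 0.0289), as edgeR and DESeq2 also called it. At the other passages none of the 6 was called by limma, edgeR or DESeq2, with 1 lower at an unadjusted p under 0.05 at P2, 1 at P6 and 0 at P10. Map2k4, Map2k7, Mapk8 and Mapk14 had differences of -0.37, -0.34, 0.23 and -0.12 at P10, and at P2 Map2k4 and Mapk9 had -0.58 and 0.34. Beside these 2 lists, limma called 4.15% of all tested features at P2, 9.24% at P4, 21.0% at P6 and 17.0% at P10.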

How the data were processed

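RNA of CHO-K1 cells was sequenced in 2 libraries at each of 5 passages. Per the labels' protocols, Ribo-Zero depletion of ribosomal RNA preceded a TruSeq Stranded preparation. The deposited signal values are read counts that the authors normalised with DESeq, per the submitters' processing notes; for aligner, counting tool and build, the record is "not given in the sources used here". Each value is a whole multiple of its column's smallest value above 0 (100% of values within 0.001), which gave back whole reads. An automatic check could not tell recovered reads from rounded values in P4 replicate 1, and edgeR and DESeq2 treat it as reads nonetheless.

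Of 20050 features named by number, 16386 matched a symbol in RefSeq (CriGri-PICRH-1.0). Changes were tested by limma 3.58.1 (R 4.3.3) on log2(value + 1), 1 fit over all 10 libraries with a trended prior and 5 residual degrees of freedom, for features with a mean of at least 10, two-sided, with Benjamini-Hochberg adjustment over all features within a comparison. The alternatives were a pseudocount of 5, other filters, a replicate block, the 2 passages compared alone, leaving out 1 library, and edgeR 4.0.16 and DESeq2 1.42.0 on the recovered reads. The fit without P6 replicate 2 and P10 replicate 1 was chosen after seeing the data. The steps were tested on simulated data. Replicate numbers were not used to pair the samples in the main fit.

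The members and gene lists were chosen with earlier results of these data known. Beside the members and the other listed Sprouty and Dusp genes, each list names up to 4 tested genes with the smallest p at P10 and 2 at P2 against P0, and, for each member called against P0, the 3 genes most like it. The 6 list genes with no feature (Phlda1, Etv4, Fosl1, Map2k1, Nf1 and Map2k6) were not analysed here, and 1 gene that the naming rule selects is not reported here.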

Additional observations from a re-analysis of the deposited data

How the results depend on the processing

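The depth limits Spry1, Spry4 and Spred3 most, with 24, 10 and 35 reads at P0 in both libraries together. No value of a member changed sign where it or its alternative was called. By limma the number of members called was 3 at each of P2, P4, P6 and P10 against P0, 2 for P10 against P2 and 0 in the other pairs. Over the 10 fits that left out 1 library (leave-one-out) it was 1 to 4 at each of P2, P4, P6 and P10 against P0, 0 to 5 for P10 against P2 and for P6 against P2, 0 to 3 for P10 against P4, 0 to 1 for P6 against P4 and P10 against P6, and 0 for P4 against P2. The number of all features called in those fits was 61 to 1581 at P2 (561 with all libraries), 143 to 2791 at P4 (1250), 422 to 5452 at P6 (2841) and 318 to 4744 at P10 (2301) against P0. It was 0 to 9 for P4 against P2, 0 to 3681 for P6 against P4, 0 to 2934 for P10 against P6, 0 to 3469 for P6 against P2 (51), 5 to 3503 for P10 against P2 (170) and 0 to 4097 for P10 against P4 (30).

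With only the libraries of the passages compared, members called were 5 at P2, 8 at P4, 1 at P6 and 0 at P10 against P0 (limma; 3 at an unadjusted p under 0.05 at P10), 2 for P4 against P2 and 0 for P10 against P2. Features called were 3940 at P2, 5677 at P4, 2620 at P6 and 49 at P10 against P0. They were 569 for P4 against P2, 4 for P6 against P4, 334 for P6 against P2 and 0 for P10 against P2 and P10 against P4. Without P6 replicate 2 and P10 replicate 1, members called were 5, 8, 5 and 5 at P2, P4, P6 and P10 against P0, 1 for P4 against P2, 2 for P6 against P4, 3 for P10 against P6, 8 for P6 against P2 and for P10 against P2, and 4 for P10 against P4. Features called were 4639, 5836, 6593 and 6264 against P0, and 226, 3744, 3605, 4146, 2989 and 1813 in those 6 other pairs. There P6 and P10 have 1 library each, assumed to vary like the other passages. The cause of these shifts was not tested.

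DESeq2 called 1061 features at P2 against P0, 10 for P4 against P2, 463 for P6 against P4, 67 for P10 against P6, 1008 for P6 against P2, 836 for P10 against P2 and 643 for P10 against P4, with 1 member for P10 against P6, 5 for P10 against P2 and 3 for P10 against P4. With the replicate number as a block, features called were 261 at P2 and 767 at P4 against P0, 3 for P6 against P2, 48 for P10 against P2 and 7 for P10 against P4, and 1 member was called at P4. The calls lost there were Spry4 at P2 (adjusted p = 0.0582), Spry1 (0.0652) and Spred1 (0.0789) at P4 and Dusp4 at P6 (0.0548). Deviations of same-numbered libraries correlated at -0.67 to 0.23 between passages, which cannot show whether the replicate numbers pair the samples. With no filter on low values, 1 member and 1013 of 21531 features were called at P4 against P0. In that fit 27 features were called for P6 against P2, 102 for P10 against P2 and 14 for P10 against P4. A mean of at least 50 left 10762 features, without Spry1, Spry4 and Spred3. There 1 member was called at P2 against P0 (530 features), 1 for P10 against P2 (149 features) and 1 for P10 against P4 (80 features).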
